A study of Rattus norvegicus with 12 samples.

Results

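The genes described here encode proteins that choose and assemble splice sites. They comprised heterogeneous nuclear ribonucleoproteins (hnRNPs), serine/arginine-rich (SR) proteins, the SF3A and SF3B complexes, proteins of the small nuclear ribonucleoproteins (snRNPs) and the Cdc2-like kinases Clk1 to Clk4. They were selected by gene symbol, as every probe with a platform symbol beginning with Hnrnp, Srsf, Sf3a, Sf3b or Snrpa to Snrpg, plus the Clk kinases, and Snrpn was left out. The set was chosen because Hnrnpl and Clk4 were high in MLP-F livers, so the MLP-F values of these 2 genes are given as a description with no test. It held 40 probes of 39 genes, among 22505 probes and 13327 named genes: 17 hnRNP, 10 SR, 5 SF3, 4 snRNP and 4 Clk probes. All 40 were among the 15753 probes kept for testing. Srsf12, with a mean of 0.186 over the 12 livers, lay nearest to the lowest mean kept, 0.158.

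Liver RNA of 12 male Wistar pups, taken on day 1 of life, was hybridised to 1-colour bead arrays, 1 pup per array and 4 pups for each of the 3 maternal diets. MLP-F pups were born to dams fed a low protein diet with added folic acid, MLP pups to dams fed the low protein diet alone, and C pups to dams fed the control diet. The dams had these semi-synthetic diets from the detection of pregnancy until delivery, and no group had folic acid added to the control diet. The study's methods state that 1 litter per diet was used, so diet and litter cannot be told apart and each p-value measures the spread among littermates. Levels are given on a re-expanded log2 scale, a reading inferred from the deposited values, on which a doubling of intensity is a difference of about 1 and of less than 1 for dim probes. Levels of different probes on it cannot be set against each other.

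Pre-mRNA splicing is carried out by the spliceosome, which recognises the ends of introns through U1 and U2 snRNPs. SR proteins mostly bind enhancer sequences in exons and favour inclusion of the exon, whereas many hnRNPs bind silencers and oppose it. Clk kinases phosphorylate the arginine/serine domain of SR proteins and thereby govern where in the nucleus they reside and how active they are. In the liver, Srsf5 was first described as an early gene of rat liver regeneration that insulin also induces. The array measured transcript abundance with a probe at 1 place in each transcript, so it gives no measure of exon usage, of phosphorylation or of splicing itself.

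A few livers stood apart. Skeletal muscle markers (8 probes) averaged 4.24 in C replicate 4, against at most 0.517 in any other liver. Stellate cell and fibroblast markers averaged 3.98 in C replicate 1 and 2.71 in C replicate 4, against at most 2.23 elsewhere. Epithelial and lung markers averaged 1.28 and 1.87 in the same livers, against at most 0.225 elsewhere, but through different probes. Krt14 and Krt15 were high in C replicate 1 (3.56 and 3.49). Scgb1a1, Sftpb, Sftpa1 and Sftpc were high in C replicate 4 (4.18, 3.96, 1.71 and 1.12). Hepatocyte markers averaged 5.54 to 5.74 in MLP-F, 5.83 to 5.96 in MLP and 5.61 to 5.90 in C livers. Their 7 kept probes did not move together between MLP-F and MLP, with 2 higher, 5 lower and differences from -1.40 to 0.26. Cps1 stood at 2.90 to 4.10 in MLP-F and 4.75 to 5.14 in MLP livers. Ttr stood at 7.36 to 7.60 in MLP-F and 6.99 to 7.35 in MLP livers. Cell division markers averaged 2.58 to 3.22 in MLP-F, 2.24 to 2.44 in MLP and 3.11 to 3.33 in C livers, and all 7 of their kept probes were called lower in MLP than in C and higher in MLP-F than in MLP. They moved with the same groups as several splicing genes below, and their part in those differences was not tested. In whole liver, fewer cells of a type and less RNA per cell cannot be told apart.

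Hnrnpl encodes an hnRNP that binds CA-rich RNA and can either repress or include an exon. Its level was 3.67, 3.53, 3.80 and 4.02 in MLP-F livers, against 3.19, 3.23, 3.17 and 3.23 in MLP livers and 2.56, 3.27, 2.68 and 2.54 in C livers. Every MLP-F liver lay above every MLP and C liver, and C replicate 2 lay above all 4 MLP livers. The MLP-F mean was 0.55 ± 0.15 above MLP (SE) and 1.00 ± 0.15 above C. The MLP mean was 0.44 ± 0.15 above C, which did not pass the test (limma, adjusted p = 0.134). That comparison moved with single C livers: without C replicate 2 the difference was 0.61 (limma, adjusted p = 0.0120), and without C replicates 1 and 4 together it was 0.23 (limma, adjusted p = 0.654). The comparisons of MLP-F and of MLP with C share the C livers.

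Clk4 encodes an SR protein kinase. Its level was 2.03, 2.34, 2.13 and 2.24 in MLP-F livers, against 2.13, 1.89, 1.89 and 1.97 in MLP livers and 1.77, 1.84, 1.43 and 1.39 in C livers. The MLP-F and MLP livers overlapped, and all of both groups lay above the C livers. The MLP-F mean was 0.21 ± 0.11 above MLP and 0.58 ± 0.11 above C (SE). The MLP mean was 0.37 ± 0.11 above C, short of the threshold (limma, adjusted p = 0.0910).

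The other Clk kinases also had positive differences in each comparison, none of which passed the test with all livers. Clk1, the paralogue of Clk4 that also phosphorylates SR proteins, stood at 4.32, 3.97, 4.33 and 4.35 in MLP-F livers, at 3.96, 4.13, 3.92 and 4.31 in MLP livers, and at 3.94, 3.81, 3.34 and 3.57 in C livers. MLP-F replicate 2 lay among the MLP livers, and every MLP-F liver lay above every C liver. Clk1 was 0.42 ± 0.14 higher in MLP than in C (SE), not called by limma (adjusted p = 0.126), and 0.16 ± 0.14 higher in MLP-F than in MLP (adjusted p = 0.610 by limma). Without MLP-F replicate 2 that last difference was 0.25 (limma, adjusted p = 0.330). Clk2 averaged 1.09 ± 0.27 in MLP-F, 0.90 ± 0.23 in MLP and 0.88 ± 0.10 in C livers (SD, n = 4 each), and Clk3 averaged 0.60 ± 0.18, 0.51 ± 0.14 and 0.39 ± 0.07 in the same order of groups. Their ranges overlapped in every pair of groups. The order MLP-F above MLP above C in the means was shared by all 4 Clk probes and by 10 of the 40 probes in all. Hnrnpl and Clk4, which chose the set, are among these 10. Another 10 had the order MLP-F above C above MLP, and the share of each order over all probes was not counted. Clk2 lost the order MLP-F above MLP above C when C replicate 1, MLP replicate 2 or MLP replicate 4 was left out. Its MLP minus C difference was then -0.022, -0.032 and -0.063.

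**Figure D1:**
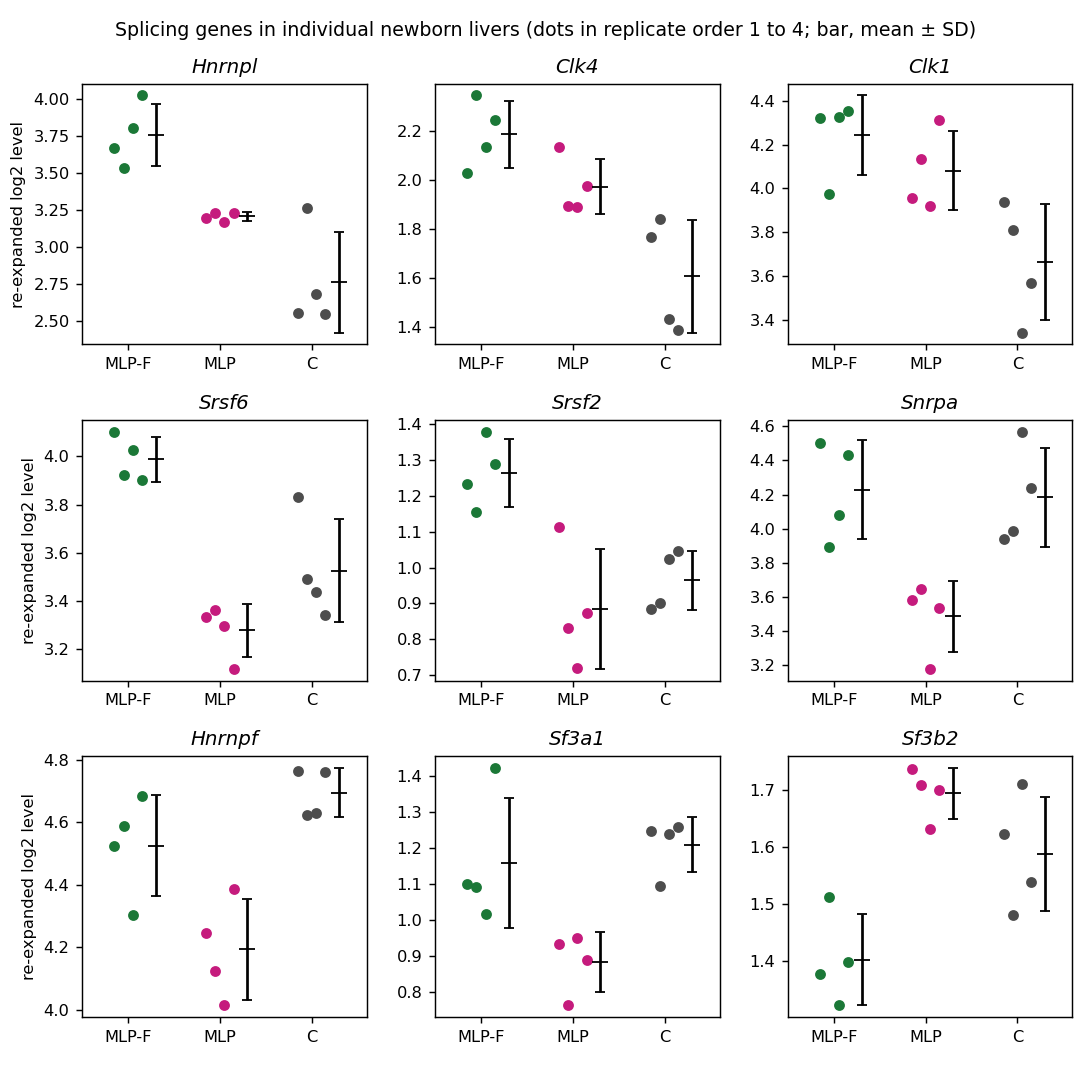
Level of 9 splicing genes in each liver on the re-expanded log2 scale, by group. Dots are livers, in replicate order, and the bar beside them is the mean with its SD (n = 4). Every MLP-F liver lies above every MLP and C liver for Hnrnpl and Srsf6, whereas Snrpa is lower in all 4 MLP livers than in the rest.

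Promoter sequences of the Clk pair with the largest differences, of Hnrnpl and of Srsf6, which had the smallest p between MLP-F and MLP, are shown to compare their start regions. They are RefSeq sequences of build GRCr8, 250 bases before to 50 bases after the annotated start, 5′ to 3′ on the gene's strand. Capitals mark TGACGT or its complement ACGTCA, the core of the cyclic AMP response element, which overlap in Clk4. The windows are chr10:36025490-36025789 (+) for Clk4, which has a second annotated start, chr9:67453131-67453430 (-) for Clk1, chr3:172008822-172009121 (+) for Srsf6 and chr1:93228151-93228450 (+) for Hnrnpl.
Clk4: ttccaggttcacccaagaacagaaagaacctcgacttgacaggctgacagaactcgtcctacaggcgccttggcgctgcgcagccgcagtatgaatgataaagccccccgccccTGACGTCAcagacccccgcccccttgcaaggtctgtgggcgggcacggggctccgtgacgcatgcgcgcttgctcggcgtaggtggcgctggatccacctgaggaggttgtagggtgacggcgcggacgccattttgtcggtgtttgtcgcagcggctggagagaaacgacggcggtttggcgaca
Clk1: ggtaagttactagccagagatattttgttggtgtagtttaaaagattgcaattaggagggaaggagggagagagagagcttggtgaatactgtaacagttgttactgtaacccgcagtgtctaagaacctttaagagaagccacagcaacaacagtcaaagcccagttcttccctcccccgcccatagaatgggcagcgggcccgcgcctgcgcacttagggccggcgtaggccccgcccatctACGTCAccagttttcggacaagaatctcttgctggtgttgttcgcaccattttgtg
Srsf6: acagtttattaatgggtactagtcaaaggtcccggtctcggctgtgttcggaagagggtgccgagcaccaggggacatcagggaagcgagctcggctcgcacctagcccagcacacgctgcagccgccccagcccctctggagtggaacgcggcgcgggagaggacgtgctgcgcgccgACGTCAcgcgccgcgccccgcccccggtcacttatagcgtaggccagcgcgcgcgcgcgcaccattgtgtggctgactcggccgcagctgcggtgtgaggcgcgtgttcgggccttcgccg
Hnrnpl: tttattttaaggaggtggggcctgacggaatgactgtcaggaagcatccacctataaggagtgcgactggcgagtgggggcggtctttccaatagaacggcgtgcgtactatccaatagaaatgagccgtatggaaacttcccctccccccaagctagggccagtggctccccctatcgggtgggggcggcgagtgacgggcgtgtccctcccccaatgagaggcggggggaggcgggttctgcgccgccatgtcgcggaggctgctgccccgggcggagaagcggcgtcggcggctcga
The 6 letters began 136 and 134 bases before the start in Clk4, 6 bases before it in Clk1 and 71 bases before it in Srsf6, and were not in the Hnrnpl window or in the other Clk4 window. Among the 43 windows of the 38 member genes with a match, 11 held them on either strand (25.6%), against 7.94% of all 33469 windows and 10.3% of the 8915 windows of genes with kept probes. The search was prompted by these sequences and the shares carry no test. GGGCGG or CCGCCC, the GC box, was in 67.4% of the member windows, 54.9% of those of genes with kept probes and 33.1% of all windows. CCAAT or ATTGG was in 53.5%, 37.5% and 37.5% of them, and TATAAA or TTTATA in 16.3%, 9.84% and 14.2%. A match is a stretch of letters and not a measured binding site.

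MLP-F and MLP livers differ in added folic acid and in litter. Between them 3 members rose in MLP-F, Srsf6, Snrpa and Srsf2, and 1 fell, Sf3b2 (adjusted p under 0.05 by limma). These were 7.5% and 2.5% of the 40 probes, against 3.05% higher and 3.53% lower among all 15753 probes. At an unadjusted p under 0.05 there were 14 higher and 4 lower members (35% and 10%), against 9.66% and 9.81% of all probes. The groups did not overlap for 10 members that were higher and 2 that were lower (25% and 5%), against 5.99% and 6.00% of all probes. The median difference over the members was 0.13, against 0.0012 over all probes, and 26 of 40 were positive. Hnrnpl is among the higher ones in these last counts and helped to choose the set. Without Hnrnpl and Clk4 the counts were 13 higher and 4 lower at the unadjusted threshold and 9 and 2 without overlap, and the median was 0.10. Of these other 38 probes, 7 were called without C replicate 1 and 2 without MLP replicate 3, when 6.89% and 3.94% of all probes were called. The members were brighter than the background: 39 of the 40 passed a filter at the 50th percentile of mean level, which 11252 of the 15753 probes passed. Under it 10.8% of all probes were called in this comparison, against 6.58% without it. The part of brightness in the contrasts with all probes, here and below, was not tested.

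Srsf6, an SR protein that binds exonic enhancers, had the smallest p of the members in this comparison. It stood at 4.10, 3.93, 4.03 and 3.90 in MLP-F livers, against 3.34, 3.36, 3.30 and 3.12 in MLP livers, and at 3.83, 3.49, 3.44 and 3.34 in C livers. The MLP-F livers were all above the others and C replicate 1 was the next highest. The rise in MLP-F over MLP was 0.71 ± 0.10 (SE, limma adjusted p = 0.00253), and it was called in each of the 12 fits that left out 1 liver, with an adjusted p of at most 0.0104. MLP was 0.25 ± 0.10 below C, which was not called by limma (adjusted p = 0.215).

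Srsf2, also an SR protein and a marker of nuclear speckles, stood at 1.23, 1.16, 1.38 and 1.29 in MLP-F livers, against 1.11, 0.83, 0.72 and 0.87 in MLP livers and 0.89, 0.90, 1.02 and 1.05 in C livers. MLP replicate 1 was the MLP liver nearest to the MLP-F group. Srsf2 rose by 0.38 ± 0.08 in MLP-F over MLP (SE, limma adjusted p = 0.0181). The call was lost by a small margin without MLP replicate 2, MLP replicate 3 or MLP-F replicate 4, where the adjusted p by limma was 0.0541, 0.0509 and 0.0506.

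Srsf5 showed MLP-F levels of 4.85, 4.57, 4.63 and 4.44, against 4.35, 4.35, 4.14 and 4.36 in MLP and 4.44, 4.24, 4.23 and 4.19 in C livers. Its 4 MLP-F livers lay above all MLP livers, and the difference of 0.33 ± 0.09 (SE) fell just short of the threshold (limma, adjusted p = 0.0531). It passed without C replicate 1 or MLP-F replicate 4 (limma, adjusted p = 0.0431 and 0.0359). The remaining SR probes differed by less between MLP-F and MLP, from -0.16 for Srsf10, a splicing repressor when dephosphorylated, to 0.25 for 1 of the 2 Srsf11 probes. Both Srsf11 probes had positive differences, 0.25 and 0.19, and neither was called. No SR probe was called between MLP and C (0 of 10), against 2.27% higher and 2.08% lower among all probes. At an unadjusted p under 0.05 by limma 0 were higher and 1 lower, against 8.98% and 8.35% of all probes.

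Snrpa encodes the A protein of the U1 snRNP, the particle that recognises the start of introns. It stood at 4.50, 3.89, 4.08 and 4.43 in MLP-F livers, against 3.58, 3.65, 3.18 and 3.54 in MLP livers and 3.94, 3.99, 4.57 and 4.24 in C livers. All 4 MLP livers lay below the other 8, and MLP-F and C overlapped. The mean of the cell division markers was also lower in all 4 MLP livers than in the other 8, and its part in the Snrpa values was not tested. Snrpa rose by 0.74 ± 0.17 in MLP-F over MLP (SE, limma adjusted p = 0.0260) and fell by 0.70 in MLP relative to C (SE 0.17, limma adjusted p = 0.0437), and both comparisons use the same MLP livers. The rise was not called by limma without MLP replicate 3, MLP replicate 4, MLP-F replicate 1 or MLP-F replicate 4 (adjusted p = 0.0734, 0.0559, 0.0732 and 0.0769). The fall was called in 3 of 12 such fits, those without MLP-F replicate 1, 2 or 4, and its adjusted p reached 0.113 without MLP replicate 3. With no filter on dim probes the adjusted p of the fall was 0.0723, and without C replicates 1 and 4 together it was 0.114 (limma). With the replicate number as a block the adjusted p by limma was 0.0580 for the rise and 0.0899 for the fall. Of the other snRNP genes, Snrpd1, a subunit of the Sm ring, was 0.21 ± 0.06 higher in MLP than in C (SE), just short of the threshold by limma (adjusted p = 0.0645), with no overlap between the groups. Snrpb2, a U2 snRNP protein, had a difference of -0.29 between MLP-F and C, or -0.18 without C replicate 1, and Snrpc, a U1 protein, differed by 0.05 to 0.14 in the 3 comparisons.

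The SF3 complexes belong to the U2 snRNP and hold it at the branch site. Their members went in different directions. Sf3b2 stood at 1.38, 1.51, 1.32 and 1.40 in MLP-F livers, against 1.74, 1.71, 1.63 and 1.70 in MLP livers and 1.62, 1.48, 1.71 and 1.54 in C livers. Every MLP-F liver was below every MLP liver, and Sf3b2 fell by 0.29 in MLP-F relative to MLP (SE 0.06, limma adjusted p = 0.0118). The call held in each of the 12 fits without 1 liver, with an adjusted p of at most 0.0360, and was lost with a trended and robust prior (limma, adjusted p = 0.0929).

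Sf3a1 showed 1.10, 1.09, 1.02 and 1.42 in MLP-F livers, against 0.93, 0.76, 0.95 and 0.89 in MLP livers and 1.25, 1.09, 1.24 and 1.26 in C livers. All MLP livers were below all livers of the other groups. Sf3a1 fell by 0.33 in MLP relative to C (SE 0.08, limma adjusted p = 0.0496), and the call was kept in only 2 of the 12 fits that left out 1 liver, those without MLP-F replicate 3 or 4, with an adjusted p of 0.140 without MLP replicate 2. It was also lost with no filter on dim probes, with a second quantile normalization and with a trended and robust prior (limma, adjusted p = 0.0733, 0.0501 and 0.0804). The same held with the replicate number as a block (limma, adjusted p = 0.0525). In MLP-F it was 0.27 ± 0.08 above MLP (SE), not called by limma (adjusted p = 0.0759). Sf3a3 and Sf3b3 had differences of 0.34 and 0.25 between MLP-F and MLP, and Sf3b1, which contacts the branch site, one of -0.15, none of them called.

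In the comparison of MLP with C livers, which differ in the low protein diet and in litter, 3 members fell in MLP and 0 rose (limma, adjusted p under 0.05). They were Hnrnpf, Snrpa and Sf3a1, or 7.5% of the 40, against 2.27% higher and 2.08% lower among all probes. At an unadjusted p under 0.05 there were 5 higher and 6 lower members (12.5% and 15%), against 8.98% and 8.35% of all probes. The groups did not overlap for 2 members that were higher and 4 that were lower (5% and 10%), against 6.18% and 6.06% of all probes. The median difference was -0.06, against 0.0037 over all probes. The count of 3 dropped to 1 on leaving out C replicate 1, 3 or 4 or any 1 of the 4 MLP livers. Without C replicate 2 it was 2, Hnrnpf lower and Hnrnpl higher. Snrpa and Sf3a1 were not called there (limma, adjusted p = 0.0572 and 0.0566). In those fits 2.13% to 3.44% of all probes were called, against 4.35% with all livers. The count was 0 without C replicates 1 and 4 together, the livers with transcripts of other tissues, when 1.34% of all probes were called.

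Hnrnpf, which binds runs of G in RNA, had the smallest p among the members between MLP and C. Its level was 4.52, 4.59, 4.30 and 4.68 in MLP-F livers, 4.25, 4.12, 4.02 and 4.39 in MLP livers, and 4.76, 4.62, 4.63 and 4.76 in C livers. All MLP livers were below all C livers, while MLP-F overlapped with both. Hnrnpf fell by 0.50 in MLP relative to C (SE 0.09, limma adjusted p = 0.0127). The call held in each of the 12 fits without 1 liver, with an adjusted p of at most 0.0438, and was lost without C replicates 1 and 4 together, where the difference was -0.43 and the adjusted p 0.116 by limma. In MLP-F it was 0.33 ± 0.09 above MLP (SE, limma adjusted p = 0.0562), which was not called with all livers but was without MLP replicate 4 or MLP-F replicate 3 (limma, adjusted p = 0.0370 and 0.0204).

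With all livers, the other hnRNP genes did not pass the test in MLP relative to C or in MLP-F relative to MLP, and their differences had both signs. Hnrnpm averaged 4.00 ± 0.19 in MLP-F, 3.70 ± 0.06 in MLP and 4.09 ± 0.17 in C livers (SD, n = 4 each). It was 0.39 lower in MLP than in C, with no overlap, just short of the threshold by limma (adjusted p = 0.0531), and below it without MLP-F replicate 3 (adjusted p = 0.0317 by limma). Hnrnpa3, an hnRNP of the A family, differed by -0.38 between MLP and C (adjusted p = 0.324 by limma), with C replicate 1 at 4.00 and the other C livers at 3.03 to 3.35. Without C replicate 1 the difference was -0.17. That C liver also had the high stellate and epithelial markers, whose part was not tested.

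Hnrnpab, known for binding the Apobec1 editing enzyme, ran opposite to these. It stood at 0.57, 1.11, 1.17 and 0.84 in MLP-F livers, against 1.71, 1.67, 1.40 and 1.73 in MLP livers and 0.82, 1.21, 1.09 and 1.90 in C livers. All MLP-F livers lay below all MLP livers, and the difference of -0.71 ± 0.21 (SE) had an adjusted p of 0.0679 by limma. It was called without C replicate 4 or C replicate 1, where the adjusted p by limma was 0.0167 and 0.0466. In MLP it was 0.37 ± 0.21 above C (SE, limma adjusted p = 0.400), or 0.59 above C without C replicate 4 (limma, adjusted p = 0.0652) and 0.23 without C replicate 1. The C livers spread over both groups, with C replicate 4, the liver with muscle transcripts, the highest of all 12. Hnrnpk, which binds C-rich RNA, differed by -0.22 between MLP-F and MLP (limma adjusted p = 0.232).

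Hnrnpu, a nuclear scaffold protein that binds both RNA and chromatin, was high in 3 of the MLP-F livers. It stood at 5.72, 4.71, 5.52 and 5.41 in MLP-F livers, against 4.80, 4.74, 4.78 and 4.77 in MLP livers and 4.66, 4.81, 5.17 and 4.85 in C livers. MLP-F replicate 2 was below all MLP livers and the other 3 were above all MLP and C livers. The difference of 0.57 ± 0.18 between MLP-F and MLP (SE) was not called with all livers (limma, adjusted p = 0.0935), and without MLP-F replicate 2 it was 0.78 and called (limma, adjusted p = 0.00296).

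**Figure D2:**
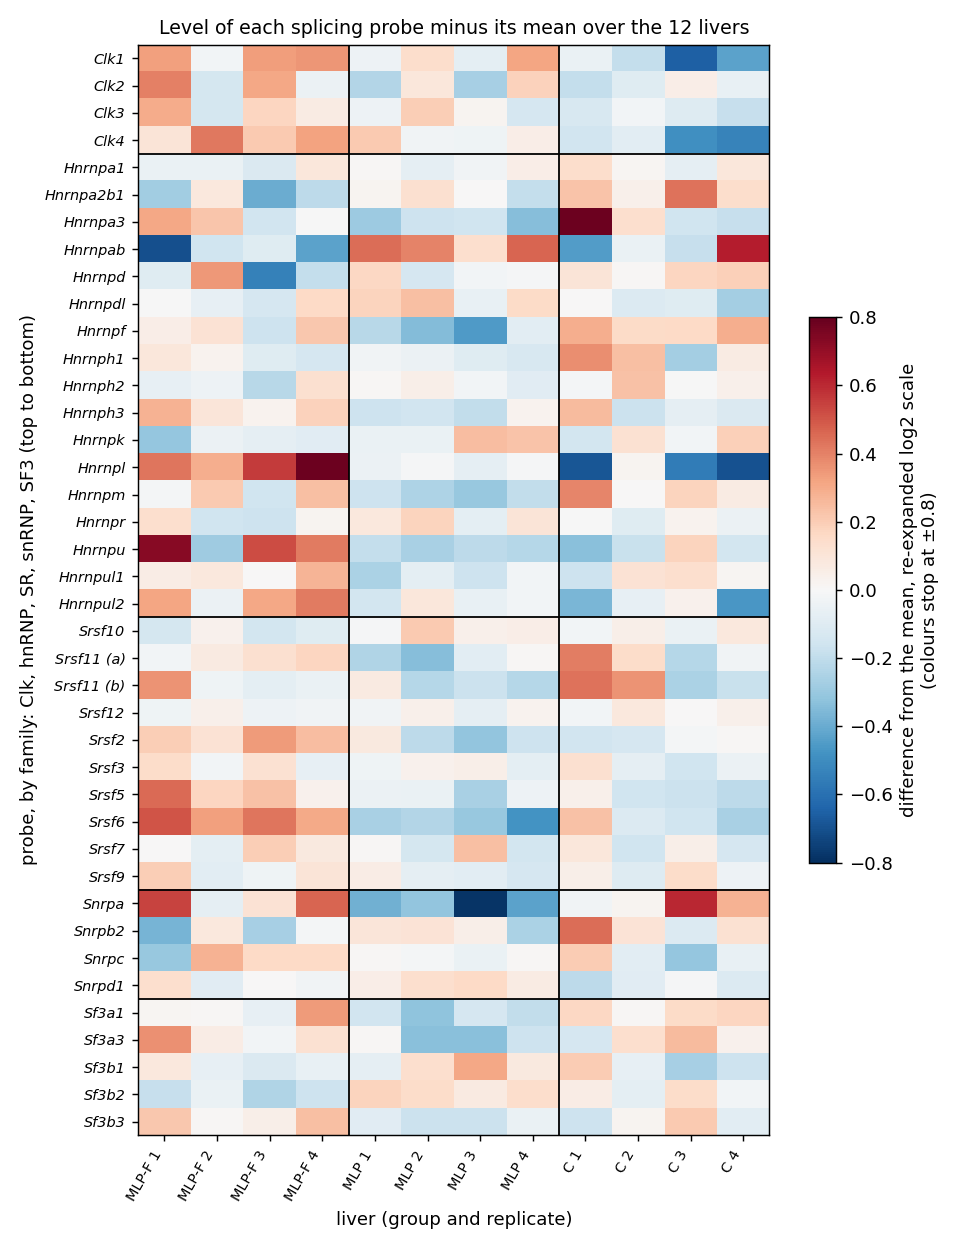
Level of each of the 40 probes in each of the 12 livers minus the probe's mean over the livers, on the re-expanded log2 scale, with red above and blue below the mean. The livers run from MLP-F through MLP to C, and the probes are grouped by family. Hnrnpl and Srsf6 are red in all 4 MLP-F livers and Snrpa is blue in all 4 MLP livers, while Clk1 and Hnrnpu in MLP-F replicate 2 differ from the other MLP-F livers.

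Between MLP-F and C livers, Hnrnpl and Clk4 chose the set and are left out of the counts. Of the other 38 probes limma called 0 higher and 0 lower, against 0.190% higher and 0.292% lower among all probes. At the unadjusted threshold 7 were higher and 2 lower (18.4% and 5.26%), against 7.71% and 7.23% of all probes, and the groups did not overlap for 3 higher and 0 lower (7.89% and 0%), against 3.13% and 3.14%. Their median difference was 0.035, against 0.0044 over all probes. Beside Hnrnpl and Clk4, the largest positive differences were 0.58 for Clk1, 0.47 for Hnrnpu, 0.47 for Hnrnpul2 and 0.46 for Srsf6. The most negative were -0.41 for Hnrnpa2b1, -0.33 for Hnrnpab, -0.29 for Snrpb2 and -0.24 for Hnrnpd, the AU-rich element binding protein AUF1. Without MLP-F replicate 2 Hnrnpd was at -0.40, and without C replicate 4 Hnrnpab was at -0.12. Hnrnpa2b1, which binds exonic silencers, averaged 4.86 ± 0.21 in MLP-F, 5.05 ± 0.13 in MLP and 5.27 ± 0.17 in C livers (SD, n = 4 each).

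These counts moved with single livers. Without MLP-F replicate 2, 5 of the other 38 probes were called higher and 2 lower, against 2.65% and 3.31% of all probes under the same fit. Clk1, Hnrnpu, Hnrnpul2, Srsf2 and Srsf6 were higher, and Hnrnpa2b1 and Sf3b2 were lower. Without C replicate 1, 1 of the 38 was called, Srsf6 (difference 0.57, limma adjusted p = 0.0103), and 0 were called on leaving out any other 1 liver, when 1 to 41 of all probes were called, against 76 with all livers.

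**Figure D3:**
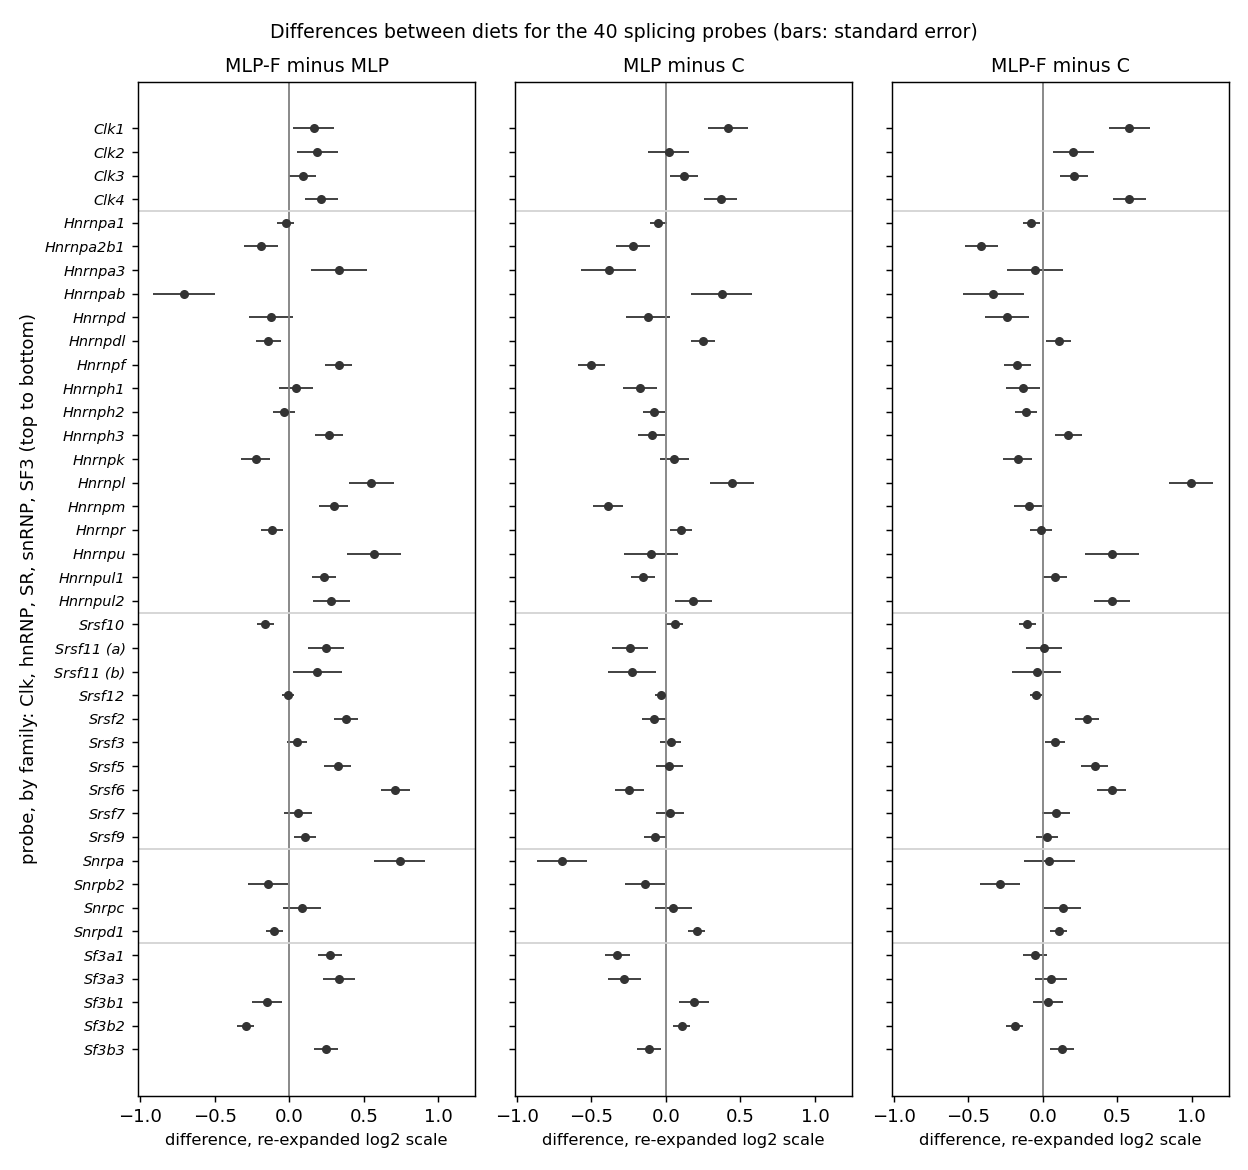
Difference between groups for each of the 40 probes, with its standard error, on the re-expanded log2 scale, in 3 panels for MLP-F minus MLP, MLP minus C and MLP-F minus C. Probes are grouped by family. All 4 Clk probes lie right of 0 in every panel, and Snrpa lies at 0.74 in the first panel and at -0.70 in the second.

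Over the 12 livers, the range of a single member's level ran between 0.158 for Srsf12 and 1.48 for Hnrnpl, with a median of 0.659. By family, the median difference between MLP-F and MLP was 0.05 for hnRNP, 0.15 for SR, 0.25 for SF3, -0.01 for snRNP and 0.18 for Clk probes. Between MLP and C it was -0.10, -0.05, -0.12, -0.05 and 0.24 in the same order of families.

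Other splicing genes were followed through a list of regulators, core spliceosome subunits and snRNP assembly factors, with 118 kept probes. Between MLP-F and MLP, 4 of them rose and 5 fell in MLP-F (limma, adjusted p under 0.05), or 3.39% and 4.24%, against 3.05% and 3.53% of all probes. At the unadjusted threshold 32 were higher and 7 lower (27.1% and 5.93%), against 9.66% and 9.81% of all probes, with a median of 0.05. Between MLP and C, 2 rose and 4 fell in MLP (1.69% and 3.39%, against 2.27% and 2.08% of all probes). At the unadjusted threshold 8 were higher and 17 lower (6.78% and 14.4%, against 8.98% and 8.35%), with a median of -0.06. The called probes numbered 20 between MLP-F and MLP without MLP-F replicate 2, when 8.60% of all probes were called. Between MLP and C they numbered 2 without MLP replicate 2 and 3 without C replicate 3 or MLP replicate 4. In these fits, in the same order, 2.13%, 3.12% and 2.34% of all probes were called. Snrpn, an imprinted snRNP gene outside the set, rose by 0.56 in MLP relative to C and fell by 0.78 in MLP-F relative to MLP (limma, adjusted p = 0.00249 and 0.000221). Cirbp, a cold-inducible RNA-binding protein, rose by 0.26 in MLP over C and fell by 0.67 in MLP-F relative to MLP (limma, adjusted p = 0.0262 and 0.000221). It was the only 1 of the 118 called between MLP-F and C (0 rose and 1 fell), lower by 0.41 in MLP-F with an adjusted p of 0.0187 by limma. Of all probes 0.190% rose and 0.292% fell there. The count for the list was 12 without MLP-F replicate 2 and 0 without C replicate 4 or MLP-F replicate 3. In these fits, in the same order, 5.97%, 0.0698% and 0.00635% of all probes were called.

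Elavl1, which stabilises mRNAs with AU-rich elements, fell by 0.30 in MLP relative to C and rose by 0.41 in MLP-F over MLP (limma, adjusted p = 0.0134 and 0.00219). Tardbp, which represses cryptic exons, fell by 0.45 in MLP relative to C (limma, adjusted p = 0.0200). Gemin4, a member of the SMN complex that assembles snRNPs, fell by 0.28 in MLP relative to C (limma, adjusted p = 0.0204), and Ddx41, a helicase of the spliceosome, fell by 0.40 in MLP-F relative to MLP (limma, adjusted p = 0.00981). All of these comparisons share the MLP livers. A list of exon junction and nonsense-mediated decay genes had only 6 kept probes of 15 names, and limma called 0 of them in any comparison. Of all probes 4.35% were called between MLP and C, 6.58% between MLP-F and MLP and 0.482% between MLP-F and C. At the unadjusted threshold 1 of the 6 was higher between MLP-F and MLP, against 9.66% of all probes, and 0 differed elsewhere.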

How the data were processed

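Liver RNA of 12 newborn rats was measured on Illumina RatRef-12 BeadChips. The authors summarised and quantile-normalized the bead data with beadarray and limma, as their methods state. The deposited values are log2 values between 4.00 and 4.63. They were read as log2 of 16 plus a value already on a log2 scale, since all lie just above 4. This reading is inferred from the values and stated in no source. Raising 2 to each deposited value and taking away 16 gave the re-expanded log2 scale (0.047 to 8.82). A second deposited table has 12 columns named by chip position that no label matches, and it was not used, so no detection p-values entered and precision is limited by 4 arrays a group. The median level per liver was 0.226 to 0.228.

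The dimmest 30 percent of probes by mean level were dropped, leaving 15753 of 22505. Symbols came from the platform annotation, updated through a RefSeq table of GRCr8 (13778 probes with 1 symbol, 0 with several, 8727 with none). All 12 livers entered 1 fit (limma 3.58.1, R 4.3.3, lmFit, contrasts.fit and eBayes) with 3 two-sided contrasts. P-values were adjusted by the Benjamini-Hochberg method over all kept probes, and a probe under 0.05 is called. The fit was tested on simulated data.

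The members, lists and tests were chosen with earlier results of these data known. Named genes were Hnrnpl, the Clk genes, called members, the 4 largest differences each way per contrast and, per contrast, the called probes of the other splicing lists, at most the 4 with the smallest p. Srsf5, Snrpd1, Snrpc, Srsf10, Sf3a3, Sf3b1, Sf3b3, Hnrnpul2 and Srsf11 were named after their values were seen. Marker lists (hepatocyte, erythroid, macrophage, stellate cell, skeletal muscle, epithelium and lung, cell division) are given as means of all their probes. These means include the hepatocyte probe of Apob and the cell division probe of Ccnb1, which the filter on dim probes dropped. Erythroid markers averaged 3.65 to 3.92 in MLP-F, 3.61 to 3.79 in MLP and 3.78 to 3.95 in C livers, and macrophage markers 1.80 to 2.10, 1.88 to 2.33 and 1.80 to 1.92. Of 8 erythroid probes limma called 1 higher and 2 lower in MLP than in C, and 2 higher and 1 lower in MLP-F than in MLP. Of 7 macrophage probes it called 1 higher and 0 lower, then 0 higher and 2 lower. Among all probes 2.27% were higher and 2.08% lower, then 3.05% and 3.53%. Alternatives were the filter, the scale, normalization, the fit, the replicate number as a block, and leaving out livers.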

Additional observations from a re-analysis of the deposited data

Results flagged for a closer look

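Among 19 named probes, 57 groups of 4 livers were searched for a liver far from the other 3 (a gap above the Dixon critical value), and 3 were found. Chance alone marks about 1 in 20 such groups. Clk1 was 3.97 in MLP-F replicate 2, against 4.32 to 4.35 in the other MLP-F livers. Hnrnpk was 0.785 in MLP-F replicate 1, against 1.00 to 1.04 in the other MLP-F livers. Sf3a1 was 1.09 in C replicate 2, against 1.24 to 1.26 in the other C livers.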

How the results depend on the processing

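Same-numbered livers did not deviate together, so their numbers were not taken as pairs (12 pairs, correlations of -0.217 to 0.143, 1 above 0.1, and 5 of 12 livers closest to their own number). With the replicate number as a block (replicate block), the members called numbered 1 between MLP and C, 5 between MLP-F and MLP and 0 between MLP-F and C, and the calls over all probes 562, 912 and 29.

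Hnrnpl and Clk4, which chose the set, are left out of the member counts from here on. Of the other 38, with all livers, 3 were called between MLP and C, 4 between MLP-F and MLP and 0 between MLP-F and C. The other splicing list had 6, 9 and 1 and all probes 685, 1037 and 76, in the same order of comparisons. Leaving out 1 liver at a time gave 1 to 4, 2 to 7 and 0 to 7 of the 38 members. It gave 2 to 8, 6 to 20 and 0 to 12 probes of the other list, and 335 to 814, 619 to 1355 and 1 to 940 of all probes. Between MLP-F and MLP, 7 of the 38 members were called without C replicate 1 and 2 without MLP replicate 3, against 6.89% and 3.94% of all probes. Between MLP-F and C, 9 members (7 of the other 38), 12 of the other list and 940 of all probes were called without MLP-F replicate 2, and 1 probe of all without MLP-F replicate 3.

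Without C replicates 1 and 4 together, the calls among the 38 members numbered 0, 6 and 0. Those of the other list numbered 2, 9 and 0, and those of all probes 211, 1026 and 14. With MLP-F replicate 2 also left out the calls numbered 0, 8 and 2, then 4, 22 and 3, then 336, 1457 and 227, in the same order of sets. With no filter on dim probes 1, 4 and 0 members were called, against 2.18%, 3.52% and 0.164% of all probes. The last share was 37 probes. With the 50th percentile as the filter 4, 7 and 0 members were called, against 7.48%, 10.8% and 0.835% of all probes. The other list then had 2 called between MLP-F and C. Array weights gave 5, 5 and 0 members, against 5.90%, 6.92% and 0.463% of all probes. They gave 2 of the other list between MLP-F and C, and the deposited scale also gave 2 there. Fits of only the 2 groups compared gave 4, 5 and 0 members, against 5.48%, 6.43% and 0.0381% of all probes. Between MLP-F and C they gave 0 of the other list and 6 of all probes. A trended and robust prior gave 2, 5 and 0 members, against 4.74%, 6.50% and 0.717% of all probes. It gave 3 of the other list between MLP and C. The cause of these shifts was not tested, beyond fewer livers or other sets of probes in the fit.

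Small differences changed sign. Clk2 between MLP and C ran from -0.063 to 0.087 over the fits without 1 liver, below 0 in 3 of them, and was -0.033 without C replicates 1 and 4, with or without MLP-F replicate 2. Snrpa between MLP-F and C ran from -0.047 to 0.17, below 0 in 4 such fits, and was -0.049 without C replicates 1 and 4, and Sf3a1 there was 0.013 without these and MLP-F replicate 2. None of these differences was called with all livers. The precision of dim members is limited by their low signal, and no detection p-values were used.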
